A study of Mus musculus with 24 samples.

Results

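Regulators of G protein signalling (RGS proteins) are encoded by a gene family of which 10 members were followed in hippocampal neurons and glia 24 hours after kainic acid. They were chosen by symbol, with earlier results of these data known. The list held Rgs2, Rgs4, Rgs8 and Rgs16 of the R4 subfamily and Rgs7 and Rgs9 of the R7 subfamily. It also held Rgs10, Rgs12 and Rgs14 of the R12 subfamily and Rgs20 of the RZ subfamily. All 10 were found among the 53379 genes of the count table, and all 10 were among the 37598 genes that passed the filter on low counts.

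The samples were nuclei of the right hippocampus of adult male C57/BL6N mice. KA mice had received kainic acid, an agonist of kainate-type glutamate receptors, into the deep cortex beside the right hippocampus, and only animals with convulsive seizures were kept. SH mice had received saline by the same surgery. No genotype differed between the groups. For each treatment, tissue of 8 mice was combined into 3 pools holding unequal numbers of animals, and the nuclei of each pool were sorted by the neuronal nuclear protein NeuN into NeuN+ nuclei (neurons) and NeuN- nuclei (glia). This gave 3 libraries in each of 4 groups, 12 in all. The glia fraction is defined by lack of NeuN alone, so it holds every NeuN- nucleus, whatever its cell type. In pooled nuclei, fewer cells of a type and less RNA per cell cannot be told apart.

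G protein-coupled receptors act by loading GTP onto the alpha subunit of a heterotrimeric G protein, and the signal lasts until that GTP is hydrolysed. RGS proteins speed up the hydrolysis, so they shorten and limit signalling by neurotransmitter and hormone receptors. The R4 proteins are small and consist of little more than the catalytic RGS domain. R7 proteins are stable only in complex with the G protein beta subunit encoded by Gnb5 and are held at the membrane by anchor proteins. Rgs12 and Rgs14 carry further domains that bind Ras-family GTPases and inactive G alpha subunits, and Rgs14 is known in the hippocampus for its enrichment in CA2 pyramidal neurons. Rgs2 is known as a gene that neurons induce quickly after strong activity.

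Library depth lay between 7769400 and 40364768 counts (median 21380824.5), and members had between 25 counts (Rgs20 in a library of SH neurons) and 12161 counts (Rgs4 in a library of KA neurons). Replicate 1 of SH glia and replicate 2 of KA glia were amplified from 0.05 ng RNA with 15 PCR cycles, against 1 ng and 10 cycles for the other libraries. Replicate 3 had the fewest genes with a count in each group. The fractions carried the markers of their labels: in SH, 11 of 12 neuronal markers were higher in neurons by the test, and 10 of 10 astrocytic, 8 of 8 oligodendrocytic and 9 of 10 microglial markers were higher in glia. Within glia, summed oligodendrocyte markers were 14680 to 30833 CPM (counts scaled to the effective library size) in SH and 7658 to 14264 CPM in KA, and summed markers of oligodendrocyte precursors were 1354 to 2439 and 560 to 859 CPM, both without overlap. Summed neuronal markers in glia overlapped, at 600 to 1806 CPM in SH and 496 to 1641 CPM in KA.

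Of the 10 genes, 6 lie on mouse chromosome 1 (GRCm38 coordinates of GENCODE M21). Rgs4 spans chr1:169741477-169747642 and Rgs2 chr1:143999338-144004161, both on the minus strand. Rgs8 (chr1:153653025-153700323) and Rgs16 (chr1:153740349-153745468) are on the plus strand, and Rgs7 (chr1:175059087-175492500) and Rgs20 (chr1:4909576-5070285) on the minus strand. Rgs9 is on chromosome 11, Rgs10 on chromosome 7, Rgs12 on chromosome 5 and Rgs14 on chromosome 13. Exons of 4 members overlap exons of a gene on the opposite strand, over 10.1% of the exon length in Rgs16, 5.50% in Rgs12, 0.726% in Rgs8, and 2.95% and 3.00% for the pair of genes that overlap Rgs20. The default counting does not use strand, so reads from these stretches cannot be told apart.

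The 250 bases before the RefSeq start are shown for Rgs4 and Rgs2, the R4 genes with the largest differences between KA and SH neurons. They were taken from RefSeq (GRCm38.p6) at chr1:169747643-169747892 and chr1:144004150-144004399, minus strand in both, and are written 5′ to 3′ toward the gene. The RefSeq start of Rgs4 is the end of the GENCODE span given above, while that of Rgs2 lies a few bases inside its span. Capitals mark TGACG, the core of the cyclic AMP response element (CRE), or its reverse complement CGTCA, and the TATA box TATAAA. They are shown because activity-regulated genes are often tied to CRE motifs.
Rgs4: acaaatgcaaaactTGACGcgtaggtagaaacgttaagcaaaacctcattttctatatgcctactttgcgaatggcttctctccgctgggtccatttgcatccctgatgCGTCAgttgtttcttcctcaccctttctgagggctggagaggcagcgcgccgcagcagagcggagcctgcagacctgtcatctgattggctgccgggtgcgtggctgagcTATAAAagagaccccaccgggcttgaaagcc
Rgs2: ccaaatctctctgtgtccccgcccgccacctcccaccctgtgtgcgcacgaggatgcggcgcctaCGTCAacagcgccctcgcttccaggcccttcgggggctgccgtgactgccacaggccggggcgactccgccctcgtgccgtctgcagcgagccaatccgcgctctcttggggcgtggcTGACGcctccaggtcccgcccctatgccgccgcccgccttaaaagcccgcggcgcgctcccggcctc

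Rgs4 held CRE cores 236 to 232 and 141 to 137 bases before its start and TATAAA 31 to 26 bases before it. Rgs2 held cores at 185 to 181 and 67 to 63 bases. Windows were found for 8 of the 10 members (11 windows, Rgs8 and Rgs12 with several starts), and not for Rgs14 and Rgs20. A core on either strand was in 4 of the 11 windows, those of Rgs2, Rgs4, Rgs8 and Rgs12, against 17.8% of 32851 promoter windows of the same length. TATAAA, searched on both strands, was in the windows of Rgs4 and Rgs9, against 12.4% of all. The full CRE TGACGTCA, which contains the core on both strands, was in none of the members' windows and in 1.55% of all, and the EGR motif GCGTGGGCG was in none and in 0.536%. The AP-1 motif TGACTCA was in 1 window of Rgs12 and in 4.46% of all. These matches describe letters only and no binding was measured.

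Levels were compared between members per kilobase of annotated exon (CPM per kb), which sets aside gene length. In SH neurons the highest level was that of Rgs14, at 28.3 ± 10.1 CPM per kb (SD, n = 3, as for all means here), followed by Rgs4 at 21.5 ± 3.45, Rgs7 at 15.5 ± 2.83 and Rgs2 at 8.04 ± 3.00. The libraries of Rgs14 and Rgs4 overlapped, while those of Rgs4 lay above Rgs7, and those of Rgs7 above Rgs2. Rgs9, Rgs8, Rgs12, Rgs10 and Rgs16 followed between 5.81 and 1.49 CPM per kb, each overlapping its neighbour in the order, and Rgs20 was separate and last at 0.624 ± 0.233. In KA neurons Rgs4 was first at 108 ± 49.2 CPM per kb, above every library of Rgs7, and Rgs14 followed Rgs7 and Rgs2 at 15.1 ± 1.68.

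The order was flatter in glia. Rgs4 was first in SH glia at 10.0 ± 1.45 CPM per kb and separate from Rgs2 at 6.95 ± 1.18, and the other 8 pairs of neighbours overlapped. In KA glia Rgs4 was again first, at 25.5 ± 18.1, but it overlapped with Rgs7 at 8.33 ± 7.23. Rgs20, last in neurons of both treatments though overlapping Rgs16 in KA, had a higher mean than Rgs10, Rgs9, Rgs16 and Rgs8 in SH glia at 3.11 ± 0.693 CPM per kb, but its libraries were separate only from those of Rgs8 among these. In KA glia it was level with Rgs2, at 7.26 ± 2.86 and 7.29 ± 3.81 CPM per kb.

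**Figure D1:**
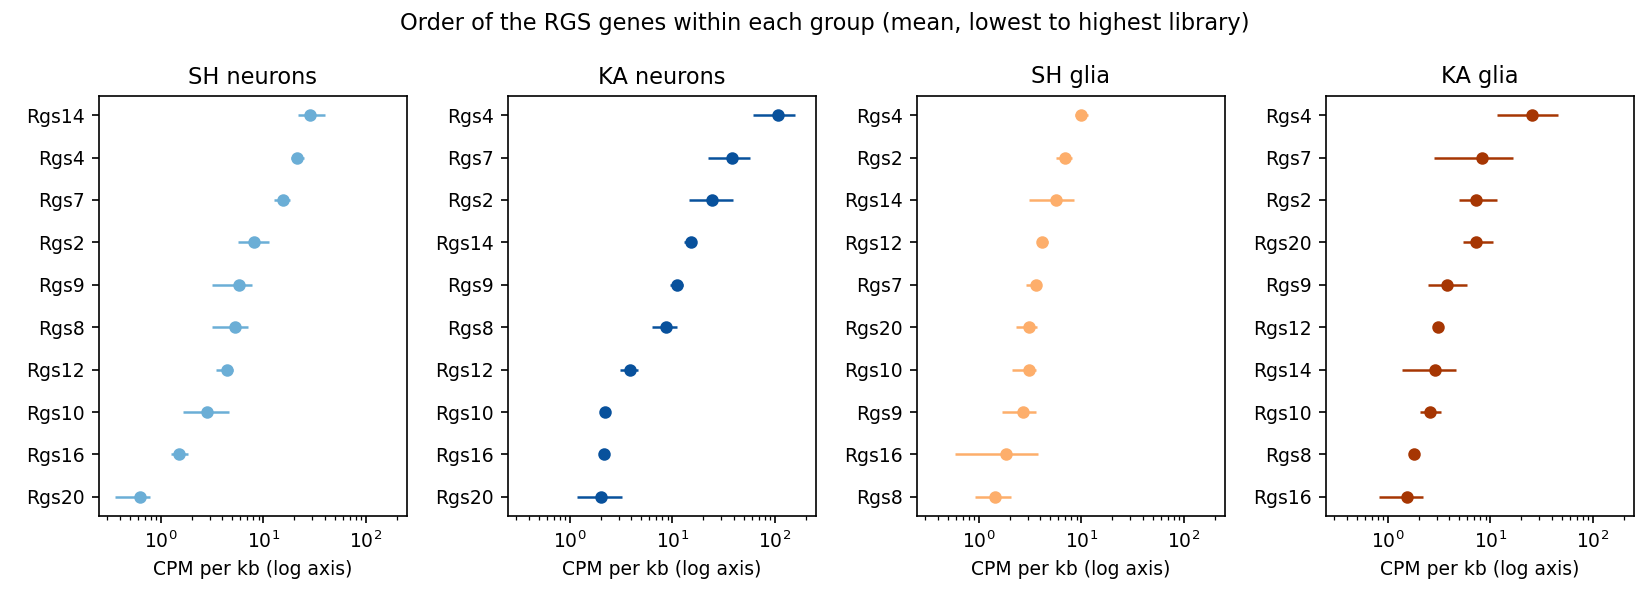
Levels of the 10 RGS genes in each group, ordered by their mean, in CPM per kb of annotated exon on a log axis; points are means of 3 libraries and lines run from the lowest to the highest library. Rgs14 leads in SH neurons at 28.3 CPM per kb and Rgs4 in the other 3 groups, at 108 in KA neurons, while Rgs20 is last in neurons.

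The first comparison asked which members differed between neurons and glia of SH mice. This held for 6 of 10 at an FDR (Benjamini-Hochberg adjusted p of the edgeR quasi-likelihood test over all genes tested) below 0.25, against 19.9% of all genes. Rgs14, Rgs7, Rgs8, Rgs9 and Rgs4 were higher in neurons and Rgs20 was higher in glia. The groups of 5 members did not overlap, where 22.7% of all genes had groups apart. Rgs2, Rgs10, Rgs12 and Rgs16 did not pass the test.

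Rgs14 had 97.3, 93.2 and 169 CPM in replicates 1, 2 and 3 of SH neurons and 13, 22.8 and 35.8 CPM in SH glia. Every library of neurons was above every library of glia, with a log2 fold change (logFC) of 2.33 (SE 0.46) and an FDR of 0.00296. The glia library of a pool held 13.4% to 24.5% of the Rgs14 level of its neurons, and the summed neuronal markers held 11.1% to 27.5%. The part of neuronal RNA in these glia values was not tested.

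Rgs7 (logFC 2.10, SE 0.53, FDR 0.0153) and Rgs8 (logFC 1.88, SE 0.39, FDR 0.00401) were also higher in SH neurons than in SH glia without overlap. Rgs7 measured 93.4 ± 17.0 CPM in neurons and 21.8 ± 3.94 CPM in glia. Rgs8 measured 51.1 ± 19.3 and 13.9 ± 5.71 CPM. Rgs9, which is best known from striatum and retina, was at 37.1 ± 15.2 CPM in neurons and 17.2 ± 6.14 in glia, with the lowest library of neurons below the highest of glia (logFC 1.11, SE 0.42, FDR 0.116).

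Rgs4 was less unequal, with 66.5 ± 10.7 CPM in SH neurons and 31 ± 4.50 CPM in SH glia (logFC 1.10, SE 0.47, FDR 0.182). Its glia libraries held 42.0% to 52.7% of the level of the same pool's neurons, above the 11.1% to 27.5% of the neuronal marker sum in every pool. The calls of Rgs4 and Rgs9 rested on single libraries: the Rgs4 call was kept in 2 of the 6 fits that left out a library of these groups, those without SH neurons replicate 1 or SH glia replicate 3. The Rgs9 call was lost without SH neurons replicate 3 (FDR 0.437) or SH glia replicate 1 (FDR 0.726). The FDR ran from 0.00141 to 0.787 for Rgs4 and from 0.00190 to 0.882 for Rgs9 over 15 alternatives.

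Rgs20, whose RZ subfamily acts on the Gz and Gi class of alpha subunits, went the other way. It had 1.51, 3.12 and 3.31 CPM in SH neurons and 9.89, 14.1 and 15.5 CPM in SH glia, so every glia library was higher (logFC neurons over glia -2.31, SE 0.46, FDR 0.00314). Neurons held 15.3% to 22.1% of the glia level of the same pool. The sums of astrocytic, microglial and oligodendrocytic markers in neurons were 8.02% to 23.4%, 4.17% to 4.80% and 1.23% to 4.26% of their level in glia, so the share of Rgs20 was above the microglial and oligodendrocytic shares and overlapped the astrocytic one.

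Rgs10, Rgs12 and Rgs16 overlapped between the fractions. Rgs12 measured 37.6 ± 7.21 CPM in SH neurons and 35.1 ± 4.20 in SH glia, Rgs10, which is often studied in microglia, 4.84 ± 2.77 and 5.27 ± 1.43, and Rgs16 3.50 ± 0.707 and 4.33 ± 3.94. Rgs2 was at 29.2 ± 10.9 CPM in SH neurons and 25.2 ± 4.27 in SH glia, also with overlap (logFC 0.21, SE 0.43, FDR 0.917).

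**Figure D2:**
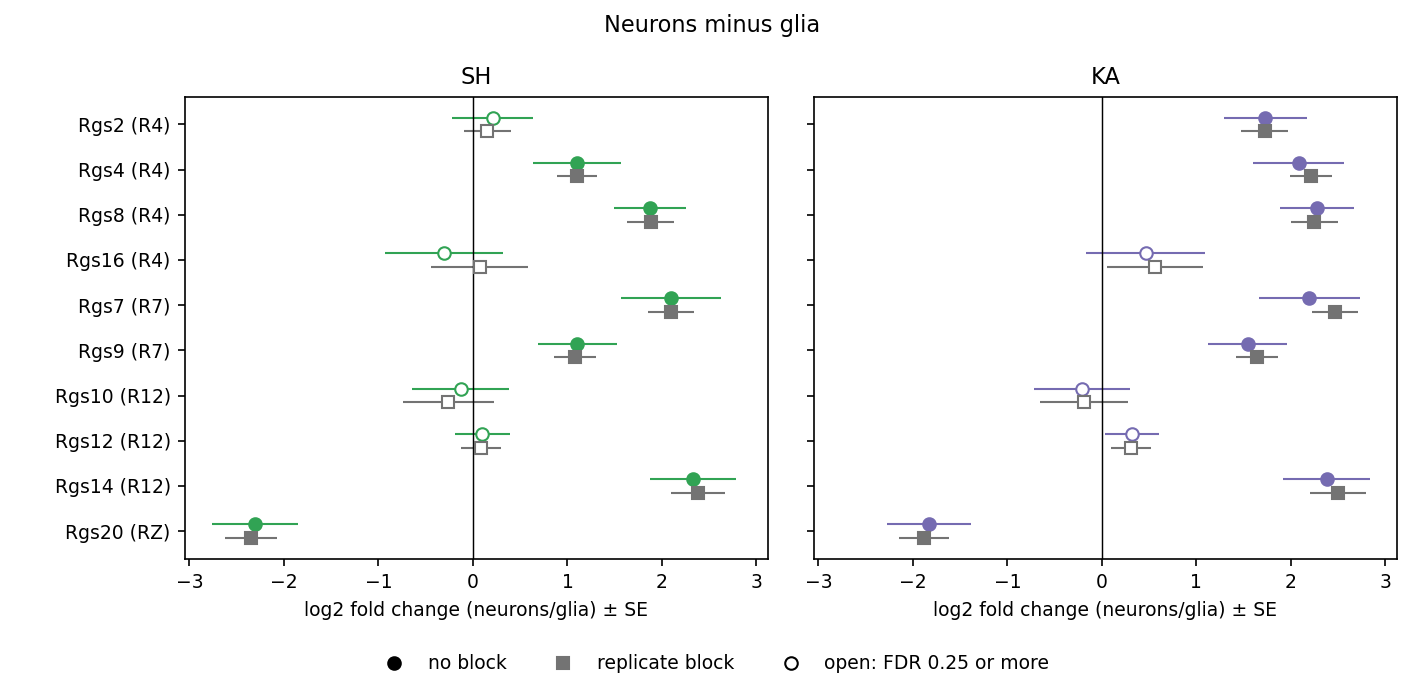
Log2 fold change of neurons over glia with its SE for each RGS gene in SH (left) and KA (right), without a block (circles) and with the pool as a block (grey squares); filled symbols have an FDR below 0.25. Rgs14, Rgs7, Rgs8, Rgs9 and Rgs4 lie to the right of 0 and Rgs20 to the left in both, and Rgs2 is filled only in KA.

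In KA mice 7 of 10 members differed between neurons and glia, against 17.8% of all genes, and the groups of these 7 were apart, against 25.1% of all genes. They were the 6 genes found in SH, in the same directions, and Rgs2. Rgs2 had 53.1, 68.8 and 142 CPM in KA neurons and 18, 19 and 42.4 CPM in KA glia (logFC 1.73, SE 0.44, FDR 0.0163). This call was lost without KA glia replicate 1 (FDR 0.293) or replicate 2 (FDR 0.285), and so was that of Rgs9 (FDR 0.404 and 0.364). The FDR of Rgs2 ran from 0.000116 to 0.293 over its 15 alternatives and that of Rgs9 from 6.25e-05 to 0.404.

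The remaining logFC values of KA neurons over KA glia were 2.38 for Rgs14 (FDR 0.00287), 2.28 for Rgs8 (FDR 0.00144), 2.20 for Rgs7 (FDR 0.0120), 2.08 for Rgs4 (FDR 0.00899), 1.55 for Rgs9 (FDR 0.0242) and -1.83 for Rgs20 (FDR 0.0120). With the pool as a block, the same 6 members passed in SH and the same 7 in KA, where 33.7% and 31.4% of all genes passed. The glia level of Rgs4 was 18% to 28.9% of that of the same pool's neurons in KA, beside 8.73% to 24.0% for the neuronal marker sum.

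The main comparison was that of KA with SH in neurons. In the joint fit of both cell types, Rgs4 was the only member past the FDR of 0.25. Its level was 5.03-fold higher in KA, and 0.34% of all genes passed in either direction. When the replicate number entered the model as a block, 6 of 10 members passed, against 3.05% of all genes: Rgs4, Rgs20, Rgs2, Rgs7 and Rgs9 were higher in KA and Rgs14 was lower. The groups of 7 members were apart without any model, higher in KA for Rgs2, Rgs4, Rgs7, Rgs9, Rgs16 and Rgs20 and lower for Rgs14, where 9.72% of all genes had groups apart. The median logFC of the 10 members was 0.82, and that of all genes tested was 0.00048. The study, which treated neurons and glia separately, listed Rgs4 and Rgs20 as upregulated in neurons at the same FDR threshold. A separate fit of neurons here, given below, also called more members than the joint fit.

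Rgs4 limits signalling through the Gi, Go and Gq classes and is abundant in cortex and hippocampus. It had 57.2, 64.2 and 78.2 CPM in replicates 1, 2 and 3 of SH neurons and 188, 324 and 493 CPM in KA neurons. All KA libraries were above all SH libraries, and replicate 3 was highest in both groups. The logFC was 2.33 (SE 0.48, FDR 0.111) without the block and 2.24 (SE 0.30, FDR 0.000361) with it. Leaving out a library moved the logFC between 1.94 and 2.62, but the call was kept only without KA neurons replicate 1 (FDR 0.0701), and the FDR was 0.323 to 0.772 without any of the other 5. Over 16 alternatives the FDR ran from 0.000361 to 0.772 and passed in 9.

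Rgs2 preferentially acts on the Gq class. It had 41.3, 20.4 and 25.7 CPM in SH neurons and 53.1, 68.8 and 142 CPM in KA neurons. The groups did not overlap, with replicate 1 of SH and replicate 1 of KA nearest to each other, and the 3 differences between libraries of the same number were 0.36, 1.75 and 2.46 on the log2 scale. The logFC of 1.59 (SE 0.44) had an FDR of 0.398 without the block and 0.0262 with it (logFC 1.54, SE 0.34). Over the alternatives the FDR ran from 0.0262 to 1 and passed in 5 of 16.

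**Figure D3:**
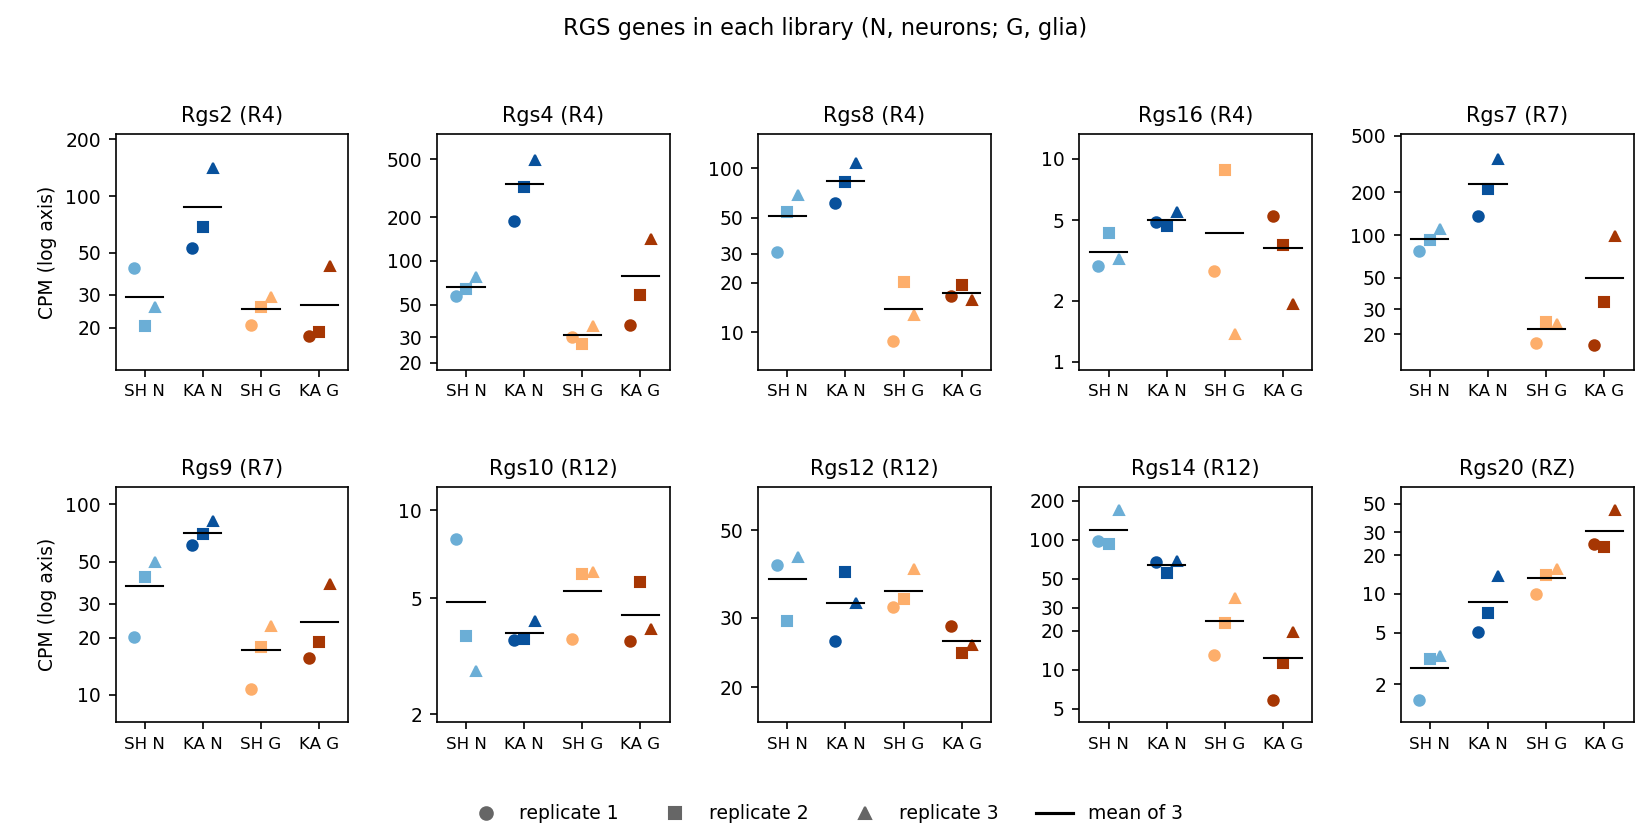
CPM of the 10 RGS genes in each of the 12 libraries on log axes, by group (SH and KA neurons, N; SH and KA glia, G), with the symbol giving the replicate and the line the mean of 3 libraries. In neurons the KA libraries of Rgs4, at 188 to 493 CPM, lie above the SH libraries at 57.2 to 78.2 CPM, and the KA libraries of Rgs14 lie below those of SH.

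The other R4 members had smaller logFC values. Rgs8 was at 30.6, 53.8 and 68.9 CPM in SH neurons and 61.7, 82.4 and 107 CPM in KA neurons, with overlap (logFC 0.71, SE 0.37, FDR 1; with the block 0.75, FDR 0.253). Rgs16 stayed between 2.97 and 4.30 CPM in SH and between 4.65 and 5.51 CPM in KA neurons. Its groups were apart, yet the logFC of 0.52 (SE 0.63) did not pass with or without the block (FDR 0.932 and 1), at 49 to 136 counts per library.

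Of the R7 members, Rgs7 had 76.9, 92.4 and 111 CPM in SH neurons and 136, 213 and 342 CPM in KA neurons. Every KA library was higher, with a logFC of 1.30 (SE 0.52, FDR 1) without the block and 1.22 (SE 0.31, FDR 0.0631) with it. Rgs9 had 20.2, 41.6 and 49.6 CPM in SH and 61.2, 69.8 and 81.8 CPM in KA neurons, again apart, with a logFC of 0.93 (SE 0.41, FDR 1) and 1.02 (SE 0.27, FDR 0.0711) with the block. Over the alternatives the FDR ran from 0.0631 to 1 for Rgs7, passing in 2 of 16, and from 0.0711 to 1 for Rgs9, passing in 1.

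The logFC of all 3 R12 members was negative in neurons. Rgs14, the CA2-enriched member, had 97.3, 93.2 and 169 CPM in SH neurons and 67.6, 55.7 and 68.6 CPM in KA neurons, so every KA library was lower. The logFC was -0.91 (SE 0.44, FDR 1) without the block and -0.86 (SE 0.24, FDR 0.108) with it, and the FDR passed in 2 of 16 alternatives, from 0.108 to 1. Of 7 CA2 markers, none passed the test in this comparison without the block, 3 had a positive and 4 a negative logFC, and their sum was 417 to 813 CPM in SH and 623 to 1080 CPM in KA neurons. Most of that sum was Ptpn5, at 299 to 578 CPM in SH and 502 to 929 CPM in KA neurons. The sum of the other 6 markers was 191, 117 and 235 CPM in SH and 121, 137 and 150 CPM in KA neurons, with overlap and a lower mean in KA, the direction of Rgs14. In glia, where the logFC of Rgs14 was -0.96, the sum of these 6 went the other way without overlap. It was 44.7, 63.7 and 65.6 CPM in SH glia and 70.7, 118 and 156 CPM in KA glia. Of the 7 markers, 3 had a positive and 4 a negative logFC in glia, with a median of -0.24. Only 1 passed the test there without the block, higher in KA, and the largest logFC was 2.22. The sum in glia therefore does not describe the markers in general. The part of CA2 neurons in the Rgs14 values was not tested. Rgs10 (4.84 ± 2.77 against 3.79 ± 0.332 CPM) and Rgs12 (37.6 ± 7.21 against 32.6 ± 6.45 CPM) overlapped between SH and KA neurons and had an FDR of 1, or 0.981 to 0.990 with the block.

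Rgs20 was at 1.51, 3.12 and 3.31 CPM in SH neurons and at 5.04, 7.11 and 13.7 CPM in KA neurons, from 25 to 337 counts. The groups were apart and all 3 pairs of the same number were higher in KA. The logFC of 1.70 (SE 0.45) had an FDR of 0.354 without the block and 0.0125 with it (logFC 1.65, SE 0.33), and the FDR passed in 5 of 16 alternatives, from 0.0125 to 1. Since Rgs20 is higher in glia, glial markers in neurons stand beside this: summed astrocytic markers were 224 to 687 CPM in SH and 242 to 780 CPM in KA neurons, summed oligodendrocytic markers 335 to 1313 and 145 to 719 CPM, and summed microglial markers 53.7 to 106 and 46.6 to 110 CPM, each with overlap. Relative to the glia of the same pool, the sums of astrocytic, microglial, oligodendrocytic and precursor markers were higher in KA neurons in all 3 same-numbered pools. These ratios also depend on the sums in glia, whose means were lower in KA. In SH and KA glia the means were 2586 and 1825 CPM for astrocytic and 1839 and 1190 CPM for microglial markers. The astrocytic sum in neurons was 8.02%, 11.7% and 23.4% of that in glia in SH and 10.1%, 28.6% and 43% in KA, and the microglial sum was 4.59%, 4.80% and 4.17% in SH and 5.61%, 7.74% and 6.55% in KA, the latter without overlap. The share of Rgs20 was 15.3%, 22.1% and 21.3% in SH and 20.6%, 30.9% and 30.5% in KA. Its mean level in glia, unlike the glial marker sums, was higher in KA, at 30.8 against 13.2 CPM. Single markers differed from their sum: in glia 3 of the 10 astrocytic markers had a positive and 7 a negative logFC. Gfap was higher in KA glia without overlap, at 136, 119 and 176 CPM in SH and 568, 360 and 720 CPM in KA. Of the 10 astrocytic markers, 5 had a positive and 5 a negative logFC between KA and SH neurons. Among those with a positive value, Gfap was at 20.4, 16.6 and 49.4 CPM in SH and 25.2, 66.3 and 248 CPM in KA. Sox9, also positive, was at 5.02, 9.74 and 17.2 CPM in SH and 17.2, 24.8 and 56.3 CPM in KA. Both overlapped between the groups and neither passed the test without the block (FDR 0.731 and 0.520). With the replicate block, the fit in which Rgs20 passed, 2 of the 10 astrocytic markers were higher and 1 was lower in KA neurons. In that fit 3.05% of all genes passed in either direction. The part of glial RNA in the Rgs20 values was not tested.

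**Figure D4:**
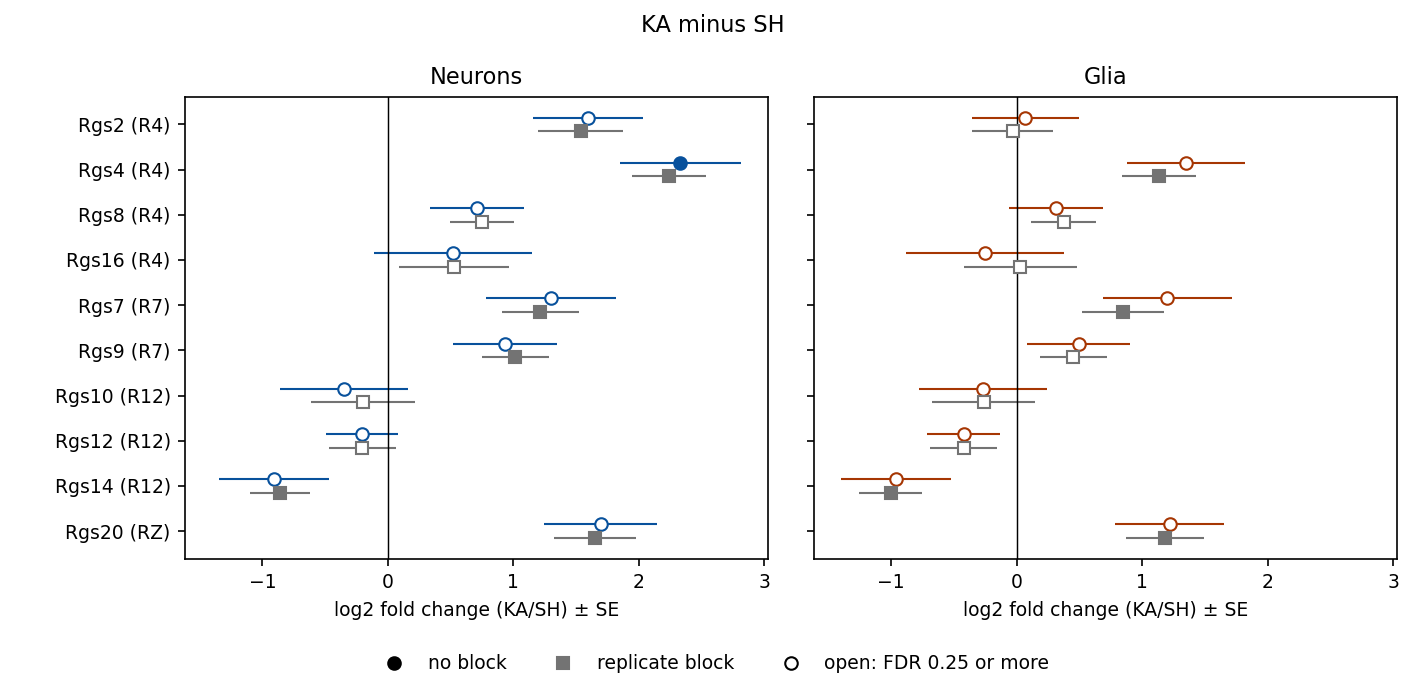
Log2 fold change of KA over SH with its SE for each RGS gene in neurons (left) and glia (right), without a block (circles) and with the replicate number as a block (grey squares); filled symbols have an FDR below 0.25. Without the block Rgs4 in neurons, at 2.33, is the one filled circle, and with it 6 genes are filled in neurons and 4 in glia.

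The same comparison in glia gave no member past the threshold without the block, where 0.747% of all genes passed (281 genes), while 4.79% had an unadjusted p below 0.05. Rgs4, Rgs7, Rgs14 and Rgs20 had an unadjusted p below 0.05 in this edgeR test, and DESeq2 called Rgs4 and Rgs20, beside 2.69% of all genes. With the block Rgs4, Rgs7 and Rgs20 were higher and Rgs14 was lower in KA glia, 4 of 10 members against 7.64% of all genes. The groups of Rgs4 and Rgs20 were apart and higher in KA and those of Rgs12 apart and lower, against 6.61% of all genes. The median logFC was 0.19 over the members and 0.14 over all genes tested.

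Rgs4 had 30.1, 27.0 and 35.9 CPM in SH glia and 36.2, 58.4 and 143 CPM in KA glia. The highest SH library and the lowest KA library were nearly level, and replicate 3 of KA stood above the other libraries. The logFC was 1.35 (SE 0.47, FDR 0.616) without the block and 1.13 (SE 0.29, FDR 0.0456) with it, and it was 0.72 (FDR 0.788) without all libraries of replicate 3. Over 16 alternatives the FDR ran from 0.0456 to 1 and passed in 3.

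Rgs20 in glia had 9.89, 14.1 and 15.5 CPM in SH and 24.5, 23.1 and 44.7 CPM in KA. Every KA library was above every SH library, and the log2 differences of the same-numbered libraries were 1.30, 0.70 and 1.52. The logFC of 1.22 (SE 0.43) had an FDR of 0.653 without the block and 0.0485 with it (logFC 1.18, SE 0.31), with a range from 0.0485 to 1 over the alternatives. The summed oligodendrocyte and precursor markers, lower in KA glia as given above, went the opposite way to Rgs20. Their part in this difference was not tested.

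Rgs7 had 17.3, 24.5 and 23.6 CPM in SH glia and 16.9, 34.0 and 99.4 CPM in KA glia. One KA library lay below all SH libraries and replicate 3 of KA was far above the rest. The logFC was 1.2 (SE 0.52, FDR 0.937), 0.85 (SE 0.32, FDR 0.232) with the block, and 0.28 (FDR 0.900) without replicate 3, and over the alternatives the FDR ran from 0.232 to 1. In the libraries of KA glia the summed neuronal markers were 496, 914 and 1641 CPM for replicates 1, 2 and 3, so replicate 3, with the highest Rgs4 and Rgs7, also had the highest neuronal marker sum. In SH glia, replicate 3 had a sum of 1806 CPM with 35.9 CPM of Rgs4 and 23.6 CPM of Rgs7. The part of neuronal RNA in these values was not tested.

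Rgs14 had 13, 22.8 and 35.8 CPM in SH glia and 5.91, 11.3 and 19.5 CPM in KA glia. The groups overlapped, but each KA library was lower than the SH library of its number, by 1.13, 1.01 and 0.87 on the log2 scale. The logFC of -0.96 (SE 0.44) had an FDR of 0.9999 without the block and 0.0353 with it (logFC -1.0, SE 0.25), with a range from 0.0353 to 1 over the alternatives. Rgs12 had 31.9 to 39.8 CPM in SH and 24.4 to 28.5 CPM in KA glia, apart but not past the test (logFC -0.42, SE 0.29, FDR 0.9999; 0.565 with the block).

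Rgs2 overlapped between the treatments in glia, at 20.7, 25.7 and 29.3 CPM in SH and 18, 19 and 42.4 CPM in KA, with a logFC of 0.07 (SE 0.43, FDR 0.9999). Rgs8 (13.9 ± 5.71 and 17.3 ± 1.97 CPM), Rgs9 (17.2 ± 6.14 and 24.2 ± 12.1 CPM), Rgs10 (5.27 ± 1.43 and 4.38 ± 1.12 CPM) and Rgs16 (4.33 ± 3.94 and 3.65 ± 1.64 CPM in SH and KA glia) overlapped and did not pass with or without the block.

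Whether the KA effect differed between neurons and glia was tested as an interaction. In edgeR no gene of the whole table passed without a block (0% of all genes). At an unadjusted p below 0.05 there were 502 genes (1.34%), among them Rgs2 as 1 of the 10 members, and DESeq2 called 39 genes and no member. With the pool as a block, which pairs neurons and glia of the same mice, 0.471% of all genes passed, and Rgs2 was the member among them. Its KA effect was larger in neurons than in glia by a logFC of 1.57 (SE 0.35, FDR 0.155), against 1.52 (SE 0.61, FDR 1) without the block, and in the other 20 alternatives the FDR did not pass. Rgs4 had a difference of 1.11 (SE 0.30, FDR 0.337) with the block and 0.98 (SE 0.66, FDR 1) without it. For the other 8 members the differences lay between -0.08 and 0.77 without the block, with an FDR of 1.

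The genes around the RGS proteins in the pathway were counted in lists. None of 13 G alpha genes, 14 G beta and gamma genes, 5 partners of R7 proteins, 12 receptor kinase, arrestin and G protein modulator genes or 16 effector genes passed in KA against SH neurons in edgeR without a block. In that test 1 of these 60 genes had an unadjusted p below 0.05, beside 1203 of all 37598 genes. DESeq2 called none of the 60 in neurons, beside 1.21% of all genes. In glia 1 of the 60 passed, beside 0.747% of all genes, and DESeq2 called 6, beside 2.69% of all genes. Gnai1, which encodes an inhibitory G alpha subunit that RGS proteins act on, had 149, 97.8 and 191 CPM in SH glia and 33, 39 and 57.5 CPM in KA glia. The groups were apart and the level in KA glia was lower, by a logFC of -1.76 (SE 0.36, FDR 0.0653).

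With the replicate block, 1 G gamma gene was higher (Gng4) and 1 arrestin gene lower (Arrb2) in KA neurons, 2 of 60 genes beside 3.05% of all genes, which is near the background. The groups of Gng4 were apart and those of Arrb2 overlapped. In the same fit 14 of the 60 genes were lower and none higher in KA glia, where 4.17% of all genes were lower. The 14 were 2 G alpha genes, 7 G beta and gamma genes, 2 of the kinase and modulator list and 3 effectors, and none of the R7 partners. The median logFC in glia without the block was -0.37 over the G alpha list, -0.51 over the G beta and gamma list and -0.35 over the effectors, beside 0.14 over all genes. The lower oligodendrocyte marker sums in KA glia moved with these values and their part was not tested. Between neurons and glia of SH all 16 effector genes passed without a block, beside 19.9% of all genes, 10 higher in neurons and 6 higher in glia, and 3 of the 5 R7 partners were higher in neurons.

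Without the block, Rgs4 was the member with the smallest p in neurons and in glia. Among 25227 genes with a mean of at least 1 CPM, those whose log2 CPM followed it most closely over the 12 libraries were Sorcs3 (Pearson r 0.980), Cgref1 (0.975) and Cdh13 (0.974). The libraries fall into 4 groups and share pools, so these values describe a common order of libraries and carry no p.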

How the data were processed

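Right hippocampal nuclei of KA and SH mice were sorted by NeuN and sequenced by mRNAseq (SMART-Seq v4 amplification). The authors trimmed reads with Trim Galore 0.4.3, aligned them to mm10 with Rsubread, and made the deposited table of raw read counts per gene with featureCounts at default settings and GENCODE M16 (unique reads). Some libraries were read as single and others as paired ends, and which is not named in the sources used here, so this could not be tested. The RRBS samples were not analysed here.

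Of 53379 gene IDs, 105 had no GENCODE M21 symbol and were dropped. Counts of the 12 libraries were filtered (filterByExpr, minimum count 10, minimum total 15), scaled by TMM and fitted with 4 group means by the quasi-likelihood model of edgeR 4.0.16 (legacy=TRUE, R 4.3.3, limma 3.58.1), with Benjamini-Hochberg FDR over 37598 genes and a threshold of 0.25. SE is the size of logFC over the square root of F. CPM used TMM-scaled totals, with a prior count of 2 on the log2 scale. The test was tried on simulated counts with known changes.

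Deviations from group means correlated between KA and SH libraries of the same number (r from 0.264 to 0.551 in neurons and 0.457 to 0.764 in glia) and between both fractions of a pool (0.293 to 0.649), which come from the same mice. A block by replicate number within a cell type, or by pool, was therefore fitted as well. The numbers of KA and SH pools are not described as paired. The study describes the first sample of each treatment as a pool of more mice than the others. If the libraries follow that numbering, the block by replicate number also separates the larger pools from the smaller. Replicates are pools of separate mice.

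Alternatives were DESeq2 1.42.0, edgeR 4 quasi-likelihood, RLE scaling, 2 other filters, all gene IDs, separate fits, an FDR of 0.05, each library left out, both low-input libraries left out, and, chosen after seeing the data, all replicate 3 libraries left out. All 10 members were described. Of other lists, genes past the threshold between KA and SH were named, and Gng4, Arrb2, Rgs1, Rgs3, Rgs5, Rgs6, Rgs11 and Rgs17 were picked after their values were seen. Gfap, Sox9 and the CA2 sum without Ptpn5 were likewise not set by this rule. The members and all lists were chosen with earlier results of these data known. Figures used matplotlib 3.10.9 in Python 3.11.15.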

Additional observations from a re-analysis of the deposited data

Results flagged for a closer look

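One result was picked out because the KA effect differed between cell types by a test of that difference. The KA effect on Rgs2 was larger in neurons than in glia by a logFC of 1.57 (SE 0.35, FDR 0.155, edgeR with the pool as a block). Rgs2 was higher in KA in 3 of 3 same-numbered pairs of neurons and in 1 of 3 pairs of glia. Without the block the difference was 1.52 with an FDR of 1, and over all 21 alternatives it lay between 1.00 and 2.05. The FDR passed in only 1 of these 21, that with the block.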

How the results depend on the processing

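The number of members called between KA and SH neurons was 1, and it was 3 with at least 10 counts in every library and with DESeq2 (Rgs2, Rgs4 and Rgs20), 2 with edgeR 4, 5 in a separate fit of neurons, 6 with the replicate block, 0 to 2 without 1 library, and 0 without both low-input libraries, without all libraries of replicate 3, or at an FDR of 0.05. The settings with more members called also called more of all genes: 0.34% where 1 member was called, 2.50% with the count minimum, 1.21% with DESeq2, 0.673% with edgeR 4, 2.05% in the separate fit and 3.05% with the block. In glia it was 0, and 2 with the count minimum (6.46% of all genes) and with DESeq2 (2.69%) and 4 with the replicate block (7.64%), against 0.747% without. The interaction gave 0, and 1 with the block. The block changed no call between neurons and glia, where the counts ran from 4 to 6 in SH and 5 to 7 in KA without 1 library. RLE scaling moved the median logFC of all genes between neurons and glia from 0.011 to -0.14 in SH and from -0.24 to -0.39 in KA; with it, and without a filter, Rgs4 and Rgs9 in SH were not called. Directions turned only for logFC that were not called, and the cause was not tested. KA against SH in glia: Rgs2 -0.032 and Rgs16 0.028 with the block, Rgs8 -0.13 without low-input libraries, Rgs2 -0.33 without replicate 3, and without 1 library Rgs2 -0.46 to 0.28, Rgs9 -0.0038 to 0.76 and Rgs16 -0.69 to 0.80; in neurons Rgs10 -0.62 to 0.22. Interaction: Rgs10 0.039 without a filter, 0.0039 with edgeR 4, 0.45 without low-input libraries and 0.072 with the block, and without 1 library Rgs7 -0.36 to 1.08, Rgs10 -0.35 to 0.49, Rgs14 -0.36 to 0.57, Rgs16 -0.28 to 1.21 and Rgs20 -0.022 to 0.86. Neurons against glia in SH: Rgs12 -0.077 with RLE and without a filter, -0.078 with DESeq2, -0.21 with the count minimum and -0.22 without low-input libraries; Rgs2 -0.074 with the count minimum and -0.16 without low-input libraries; Rgs10 0.27 without replicate 3; Rgs16 0.072 with the block; and without 1 library Rgs2 -0.25 to 0.41, Rgs10 -0.68 to 0.15, Rgs12 -0.30 to 0.25 and Rgs16 -0.84 to 0.76. In KA Rgs12 was -0.012 with the count minimum. Each group had 3 libraries, and counts per library were lowest for Rgs10 and Rgs16 (35 to 206) and for Rgs20 in SH neurons (25 to 81).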

Other observations

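The 11 RGS genes outside the described set held no gene past the threshold between KA and SH in either cell type in edgeR without a block. At an unadjusted p below 0.05 in that test there was 1 in neurons and 4 in glia. Among all 37598 genes tested, 1203 in neurons and 1800 in glia had such a p. DESeq2 called 1 in neurons and 0 in glia, beside 1.21% and 2.69% of all genes. The replicate block gave 2 of the 11 in neurons and 4 in glia, beside 3.05% and 7.64% of all genes. With the replicate block, Rgs6 of the R7 subfamily was higher in KA neurons (logFC 1.40, SE 0.31, FDR 0.0297) and in KA glia (logFC 1.06, SE 0.32, FDR 0.104). Its level was 10.5 ± 1.16 CPM in SH neurons and 28.3 ± 7.89 CPM in KA neurons without overlap, and the FDR without the block was 0.389. Rgs11, a further R7 gene, was lower with the block in KA neurons (logFC -0.88, SE 0.23, FDR 0.0647) and in KA glia (logFC -1.23, SE 0.23, FDR 0.00437), although the groups overlapped and the FDR was 1 and 0.994 without the block. It was an abundant RGS gene of these nuclei, at 561 ± 216 CPM in SH neurons and 295 ± 65.4 CPM in KA neurons. Rgs17 (logFC 0.90, FDR 0.185) and Rgs1 (logFC 3.16, FDR 0.0745) were higher in KA glia with the block, Rgs1 from at most 85 counts in SH glia.

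Between neurons and glia of SH, Rgs11, Rgs17 and Rgs6 were higher in neurons and Rgs3 and Rgs5 in glia (FDR 0.00410, 0.00615, 0.205, 0.000453 and 0.162 without a block), 5 of 11 beside 19.9% of all genes.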
